A study of Homo sapiens with 9 samples.

Results

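The 10 genes followed were FOS, FOSL1 and FOSL2 (FOS family), JUN, JUNB and JUND (JUN family), EGR1, MYC, DUSP1 and DUSP6. DUSP1 and DUSP6 encode phosphatases that act on mitogen-activated protein kinases (MAPK). The 10 genes were chosen by symbol, as 10 of the 24204 gene symbols measured, and all 10 passed the filter on low values. The RNA was that of HepG2, a line of human liver cancer cells, and the libraries were made to find the transcripts that change when TRIB3, a stress-induced pseudokinase, is depleted. In the study, c-Jun (the JUN protein) and MYC were among the factors examined as regulators of TRIB3. There, silencing JUN markedly lowered TRIB3 expression under basal conditions, and silencing MYC did not. The comparison here runs the other way, from TRIB3 to the JUN and MYC transcripts.

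Every group was infected with lentivirus for 48 hours and then selected with puromycin for 48 hours. The groups carried a control short hairpin RNA (shCtrl), a first hairpin against TRIB3 (shTRIB3-1) or a second one (shTRIB3-2), with 3 libraries each, and cells of passage label P2 were harvested. The labels give high-glucose DMEM with serum. The study's methods describe RNA from cells without glutamine, in a passage that also covers its glutamine deprivation libraries. Its discussion reports altered repair gene expression after TRIB3 depletion in cells not deprived of glutamine. The medium at harvest is therefore uncertain. All groups were infected and selected, and no uninfected cells were compared. Nothing states that the 3 libraries of a group came from separate cultures, so p-values measure only the spread between these libraries.

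Immediate early genes are transcribed within minutes of a growth factor or stress signal, without the need for new protein. FOS and JUN proteins pair through leucine zippers into AP-1, which binds DNA elements of the TGACTCA type, and the MAPK pathways both induce these genes and act on their products. DUSP1 and DUSP6 remove the activating phosphates from MAPKs and so close a feedback loop, EGR1 is a zinc finger factor induced through serum response elements, and MYC pairs with MAX to drive genes of growth and metabolism.

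The windows upstream of these genes were read first because start regions can hold elements that respond to such signals. Of the 10 genes, 8 had a window of 250 bases before the start site in the RefSeq promoter table (GRCh38.p14). Of the 8, 4 held a match to at least 1 of 5 motifs searched on both strands. The share of all windows with a match to any of the 5 was not worked out. The motifs were the AP-1 element (TGACTCA), the variant found in the JUN promoter (TGACATCA), the cyclic AMP element (TGACGTCA), the E-box bound by MYC with MAX (CACGTG) and the CArG box bound by serum response factor. The 4 windows with a match are shown 5′ to 3′ on the strand of the gene, with the matched bases in capitals.
JUN, chr1:58784048-58784297, minus strand: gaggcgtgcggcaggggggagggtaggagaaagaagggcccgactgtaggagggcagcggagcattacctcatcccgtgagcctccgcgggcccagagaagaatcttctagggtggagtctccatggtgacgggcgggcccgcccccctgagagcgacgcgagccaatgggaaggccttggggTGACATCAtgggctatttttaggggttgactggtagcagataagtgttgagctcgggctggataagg
JUND, chr19:18281623-18281872, minus strand: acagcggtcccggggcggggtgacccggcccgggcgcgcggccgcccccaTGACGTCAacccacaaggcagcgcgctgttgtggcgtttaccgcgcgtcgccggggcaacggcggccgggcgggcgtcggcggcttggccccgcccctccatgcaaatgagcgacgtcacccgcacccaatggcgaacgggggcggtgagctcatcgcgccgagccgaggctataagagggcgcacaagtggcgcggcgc
EGR1, chr5:138465229-138465478, plus strand: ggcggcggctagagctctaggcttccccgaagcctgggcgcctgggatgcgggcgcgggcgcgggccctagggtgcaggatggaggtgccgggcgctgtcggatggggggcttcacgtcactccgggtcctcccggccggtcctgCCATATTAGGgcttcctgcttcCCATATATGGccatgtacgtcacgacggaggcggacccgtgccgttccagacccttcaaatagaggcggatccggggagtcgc
DUSP1, chr5:172771196-172771445, minus strand: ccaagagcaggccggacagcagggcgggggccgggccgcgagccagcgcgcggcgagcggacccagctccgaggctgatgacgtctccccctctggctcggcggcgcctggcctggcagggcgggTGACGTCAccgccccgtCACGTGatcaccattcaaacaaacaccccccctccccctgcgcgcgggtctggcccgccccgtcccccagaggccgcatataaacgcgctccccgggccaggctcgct

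JUN held TGACATCA from -67 to -60 relative to the start site, a match present in 2.37% of 35116 windows of the same length in the table. In JUND the cyclic AMP element lay from -200 to -193, and in DUSP1 it lay from -125 to -118, against 1.65% of all windows. DUSP1 also held an E-box from -108 to -103 (6.34% of all windows). EGR1 had 2 CArG boxes, from -105 to -96 and from -83 to -74 (1.16% of all windows). TGACTCA, present in 4.2% of all windows, was not found in the 8 windows read. A match of letters is a description of these windows, and binding was not measured.

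**Figure D1:**
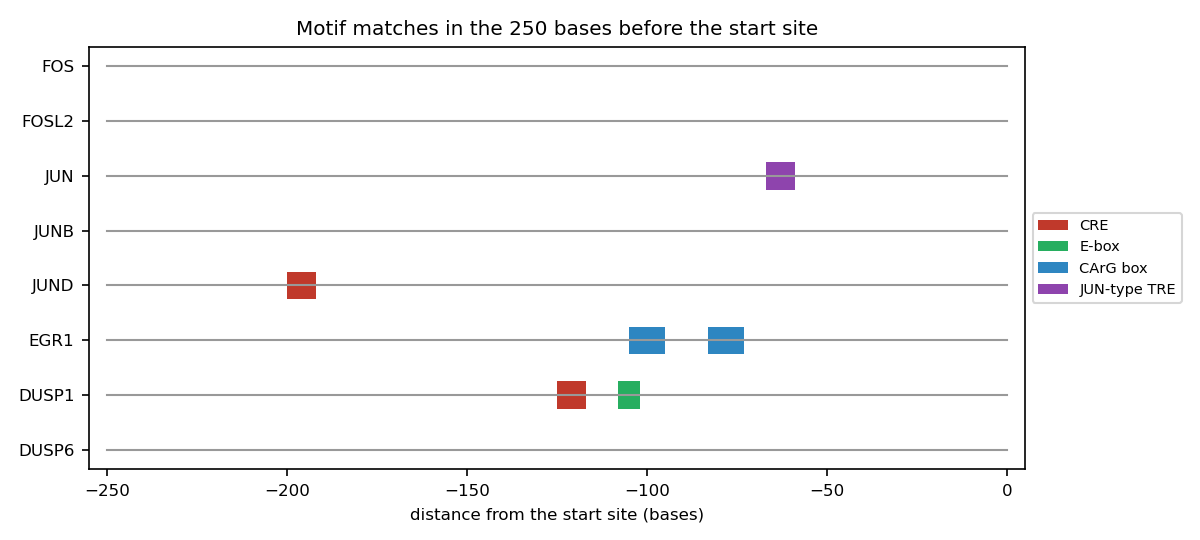
Motif matches in the 250 bases before the start site of 8 genes, with distance from the start site in bases on the x axis and 1 line per gene. Coloured blocks mark matches, which lie in JUN, JUND, EGR1 and DUSP1, and DUSP1 and EGR1 hold 2 blocks each.

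Abundance is given as FPKM, fragments scaled to the length of the gene and the total of the library. Levels can then be compared between genes, but such a comparison depends on the gene lengths used. Totals worked back from the FPKM values ran from 34206726 to 36311029 fragments per library. The targeted gene was read first as a check of the labels. TRIB3 (chromosome 20, 362835 to 397559, plus strand) averaged 66.8 ± 1.08 FPKM with the control hairpin, 33.6 ± 0.760 under shTRIB3-1 and 20.5 ± 0.171 under shTRIB3-2 (SD, n = 3 each), which left 50.3% and 30.8% of the control level. The 10 hepatocyte and HepG2 markers were all detected, and their summed FPKM was 8255 to 8892 in shCtrl, 8479 to 8908 in shTRIB3-1 and 10665 to 10977 in shTRIB3-2. Fibroblast and endothelial marker lists summed to at most 0.314 FPKM in any library, and the leukocyte list to at most 2.19 with PTPRC at 0.00448 or less. The 4 cholangiocyte markers moved with the groups, from a sum of 269 to 285 FPKM in shCtrl to 631 to 675 in shTRIB3-1 and 633 to 646 in shTRIB3-2. That sum came from KRT19 and SOX9, while KRT7 and CFTR stayed at or below 0.129 FPKM, and its part in the results below was not tested. Mitochondrially encoded genes took 5.57% ± 0.462, 6.59% ± 0.374 and 6.78% ± 0.388 of fragments (SD, n = 3 each), and their part was not tested either.

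TRIB3 knockdown was accompanied by higher transcript levels of most of these genes. With shTRIB3-1, 9 of the 10 genes rose and DUSP6 fell, and with shTRIB3-2, 9 rose and MYC fell, by limma at an adjusted p under 0.05. Most of the transcriptome also passed that test, since 32.9% of 11265 tested genes rose and 41.5% fell with shTRIB3-1, or 74.4% in all, and 35.4% rose and 40.5% fell with shTRIB3-2, or 75.9% in all. The 8 genes that rose with each hairpin stand against 28.1% of tested genes. A log2 fold change above 1 was reached by FOS, FOSL1 and DUSP1 with shTRIB3-1 and by FOSL1, EGR1 and DUSP1 with shTRIB3-2, against 5.39% and 6.06% of tested genes, and 0 of the 10 fell by that much, against 6.1% and 6.27%. FOSL1 and DUSP1 passed it with both, against 4.32%. The median log2 fold change of the 10 genes was 0.57 with shTRIB3-1 and 0.83 with shTRIB3-2, and over all tested genes it was -0.06 and -0.03. In bulk RNA, a change in the share of cells that express a gene and a change of its RNA per cell cannot be told apart. The comparisons share the 3 shCtrl libraries, so the hairpins are not separate tests of a control library that happens to lie high or low. For all 10 genes the values of shCtrl did not overlap those of either hairpin, as was the case for 77.2% and 77.4% of tested genes.

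**Figure D2:**
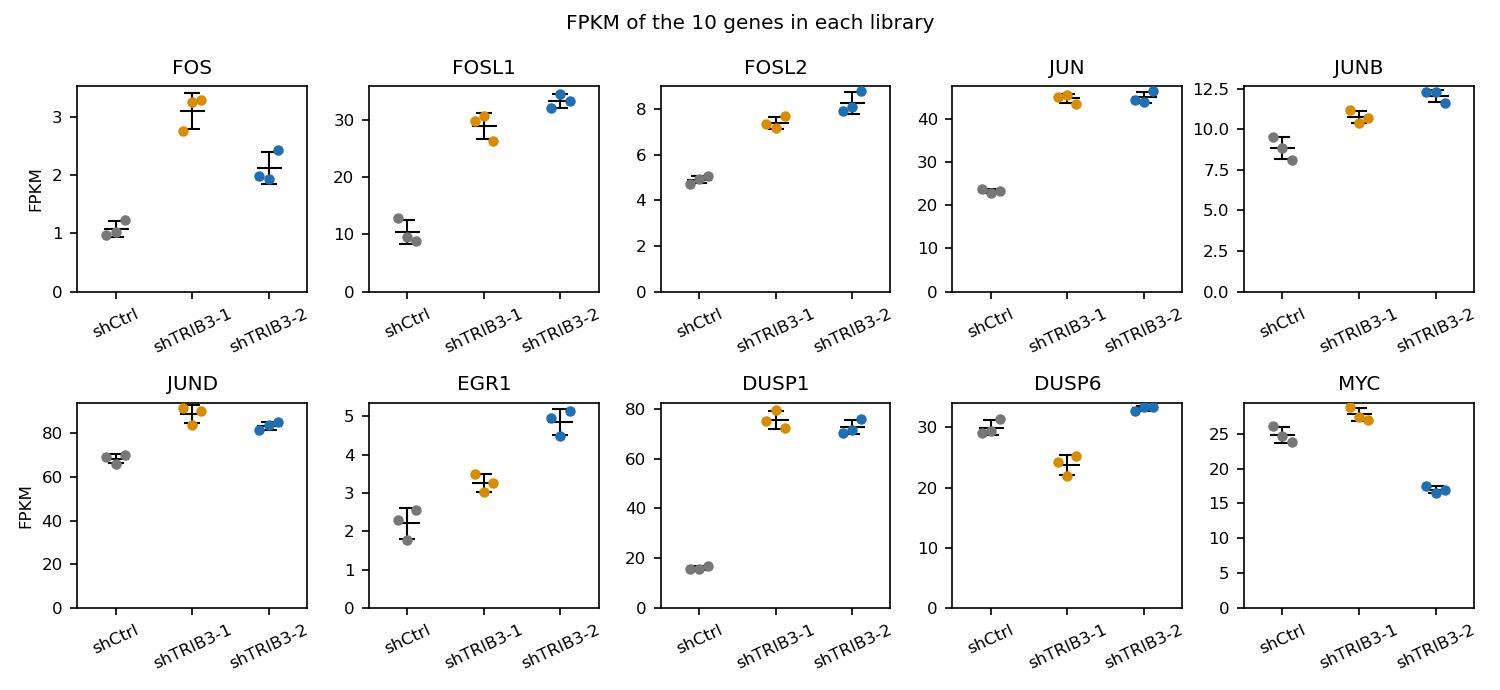
FPKM of the 10 genes in each of the 9 libraries, 1 panel per gene, with a y axis from 0 and points for libraries grouped as shCtrl, shTRIB3-1 and shTRIB3-2. Horizontal lines are group means and bars are the SD (n = 3); DUSP1 goes from 16.1 to 75.5 and 72.6 FPKM, and MYC from 24.9 to 27.8 and 16.9.

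DUSP1 (MKP-1), a nuclear phosphatase that inactivates JNK, p38 and ERK, changed most among the 10 genes with both hairpins. The gene spans bases 172768096 to 172771195 of chromosome 5 (GRCh38, minus strand), and its cyclic AMP element and E-box are shown above. Its libraries read 15.8, 15.5 and 16.9 FPKM in shCtrl, 74.96, 79.3 and 72.3 in shTRIB3-1, and 70.5, 71.6 and 75.8 in shTRIB3-2. The lowest knockdown library was thus far above the highest control library, and the hairpins overlapped each other. On the log2 scale DUSP1 rose by 2.23 (SE 0.0448, limma adjusted p = 2.62e-12) under shTRIB3-1, and shTRIB3-2 gave 2.17 (SE 0.0448, limma adjusted p = 1.63e-12). These ranked above 98.8% of tested genes in each comparison. In abundance, DUSP1 was behind JUND, DUSP6, MYC and JUN in shCtrl and behind JUND alone in both knockdowns. The difference between the hairpins was -0.06 with a 95% interval of -0.15 to 0.04 (adjusted p = 0.331).

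DUSP6 (MKP-3), the cytoplasmic phosphatase that is specific for ERK, moved in opposite directions with the hairpins. It spans 89347235 to 89352501 of chromosome 12 (minus strand), and 28.63% of its exon bases are overlapped by an unnamed gene on the other strand, whose reads cannot be told apart if counting ignored strand; the study's methods describe a strand-specific kit and the labels another kit. Control libraries read 29.0, 29.5 and 31.3 FPKM, shTRIB3-1 libraries 24.2, 22.0 and 25.2, and shTRIB3-2 libraries 32.7, 33.4 and 33.4. All shTRIB3-1 libraries lay below the control range and all shTRIB3-2 libraries above it. DUSP6 fell with shTRIB3-1 (log2 fold change -0.33, SE 0.0485, adjusted p = 4.97e-05) and rose with shTRIB3-2 (0.15, SE 0.0485, adjusted p = 0.0148). The rise is the smallest change of the 10 genes with shTRIB3-2, and without shCtrl replicate 1 its adjusted p was 0.0511 at a log2 fold change of 0.13. The hairpins differed from each other by 0.48 (95% interval 0.38 to 0.59, adjusted p = 9.42e-06).

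Within the FOS family, FOSL1 (FRA-1), a FOS protein without the strong activation domain of FOS itself, was the most abundant member and rose with both hairpins. It spans 65892049 to 65900573 of chromosome 11 (minus strand). FOSL1 read 12.9, 9.58 and 8.92 FPKM in shCtrl, 29.9, 30.7 and 26.4 in shTRIB3-1, and 32.1, 34.7 and 33.4 in shTRIB3-2. The control replicates were spread widely for this gene, whose residual SD on the log2 scale was above that of 91.1% of tested genes, yet the highest control library was well below the lowest knockdown library. Its log2 fold changes were 1.48 (SE 0.107, adjusted p = 9.85e-08) and 1.68 (SE 0.107, adjusted p = 2.56e-08). Between the hairpins the difference was 0.21 with a 95% interval of -0.03 to 0.44 (adjusted p = 0.140). It passed the test under 2 of 18 alternatives, among them the fit without shCtrl replicate 1 (adjusted p = 0.0112).

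FOSL2 (FRA-2, chromosome 2, 28392448 to 28417317, plus strand) rose less. Its values were 4.74, 4.93 and 5.09 FPKM in shCtrl, 7.34, 7.17 and 7.72 in shTRIB3-1, and 7.94, 8.12 and 8.83 in shTRIB3-2, with no overlap between the 3 groups. The log2 fold changes were 0.58 (adjusted p = 1.22e-06) and 0.74 (adjusted p = 1.16e-07). The step from shTRIB3-1 to shTRIB3-2 was 0.16 (adjusted p = 0.0342) and missed the threshold without shTRIB3-1 replicate 1, shTRIB3-1 replicate 2 or shTRIB3-2 replicate 3 (adjusted p = 0.0847, 0.108 and 0.137).

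FOS itself (chromosome 14, 75278826 to 75282230, plus strand), the founding immediate early gene, was the least abundant of the 10 in each group. It read 0.970, 1.02 and 1.23 FPKM in shCtrl, 2.75, 3.26 and 3.29 in shTRIB3-1, and 1.99, 1.94 and 2.44 in shTRIB3-2. Behind these values were 73 to 93 fragments per control library, 198 to 241 with shTRIB3-1 and 142 to 180 with shTRIB3-2. FOS rose by 1.45 on the log2 scale (SE 0.119, adjusted p = 3.10e-07) under shTRIB3-1, and shTRIB3-2 gave 0.92 (SE 0.119, adjusted p = 1.73e-05). The log2 difference of shTRIB3-2 from shTRIB3-1 was -0.53 (adjusted p = 0.00339). At this low level the size depends on the value added before the logarithm, and adding 1 in place of 0.1 gave 0.98 and 0.59. Without shCtrl replicate 3 the shTRIB3-2 value was 1.01, past the threshold of 1.

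In the JUN family, the log2 fold changes of JUN were higher than those of JUNB and JUND with both hairpins, a difference between genes that was not tested. JUN (chromosome 1, 58776845 to 58784048, minus strand), the strongest activator of the family, read 23.6, 22.8 and 23.2 FPKM in shCtrl, 45.1, 45.4 and 43.4 in shTRIB3-1, and 44.3, 43.9 and 46.3 in shTRIB3-2. Replicates lay close together, with a residual SD above that of only 9.13% of tested genes, and the hairpin groups overlapped. JUN rose by 0.94 on the log2 scale (SE 0.0333, adjusted p = 1.75e-10) and by 0.95 (SE 0.0333, adjusted p = 1.19e-10), just under the threshold of 1. The difference between the hairpins was 0.01 with a 95% interval of -0.07 to 0.08 (adjusted p = 0.884). TRIB3 itself differed between them by -0.71 (adjusted p = 9.54e-09), and a link between its level and that of JUN was not tested.

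JUND (chromosome 19, 18279694 to 18281622, minus strand), the member usually present in resting cells, was the most abundant of the 10 genes in every group. Its libraries held 69.3, 66.0 and 70.1 FPKM in shCtrl, 91.8, 84.0 and 90.3 in shTRIB3-1, and 81.7, 83.7 and 85.2 in shTRIB3-2. The log2 fold changes were 0.37 (adjusted p = 2.42e-06) and 0.29 (adjusted p = 2.27e-05). The hairpins overlapped, and their difference was -0.09 (95% interval -0.17 to -0.00, adjusted p = 0.0907). That difference passed the test under 3 of 18 alternatives. These were libraries centred on their median, voom, and the fit without shTRIB3-1 replicate 2 (adjusted p = 0.0179 for the last). JUNB (chromosome 19, 12791486 to 12793315, plus strand), which can restrain JUN activity, read 9.51, 8.86 and 8.13 FPKM in shCtrl, 11.2, 10.4 and 10.7 in shTRIB3-1, and 12.3, 12.3 and 11.6 in shTRIB3-2. The 3 groups were narrowly separated, and JUNB rose by 0.28 (adjusted p = 6.82e-04) and 0.45 (adjusted p = 1.41e-05) on the log2 scale. Its exons overlap HOOK2 on the other strand over 14.15% of their bases. JUNB differed between the hairpins by 0.17 (adjusted p = 0.0321), and 4 of the 9 libraries, left out one at a time, brought that adjusted p to between 0.0785 and 0.101; these were replicates 2 and 3 of shTRIB3-1 and replicates 1 and 2 of shTRIB3-2.

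Because the members rose by different amounts, the make-up of each family's transcripts moved. The summed FPKM of the JUN family was 100.5 ± 2.53 with the control hairpin and 144 ± 4.08 and 140.5 ± 2.49 after knockdown (SD, n = 3 each). JUN was 23.1% ± 0.220 of that sum in shCtrl, 31.0% ± 1.31 in shTRIB3-1 and 31.9% ± 0.495 in shTRIB3-2, with no overlap between control and knockdown libraries. JUND went from 68.1% ± 0.844 to 61.5% ± 1.31 and 59.5% ± 0.382. The FOS family sum went from 16.5 ± 1.85 FPKM to 39.5 ± 1.92 and 43.8 ± 1.56. FOSL1 made up 63.2% ± 5.52 of it in shCtrl, 73.3% ± 2.39 in shTRIB3-1 and 76.2% ± 1.38 in shTRIB3-2. FOSL2 went from 30.2% ± 4.15 to 18.8% ± 1.65 and 18.9% ± 0.816, and FOS made up 6.63% ± 1.44, 7.87% ± 0.966 and 4.84% ± 0.570. FOSB, the remaining FOS family gene, was counted among the other AP-1 genes below. These shares are of transcripts per length, depend on the gene lengths used and say nothing of protein.

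**Figure D3:**
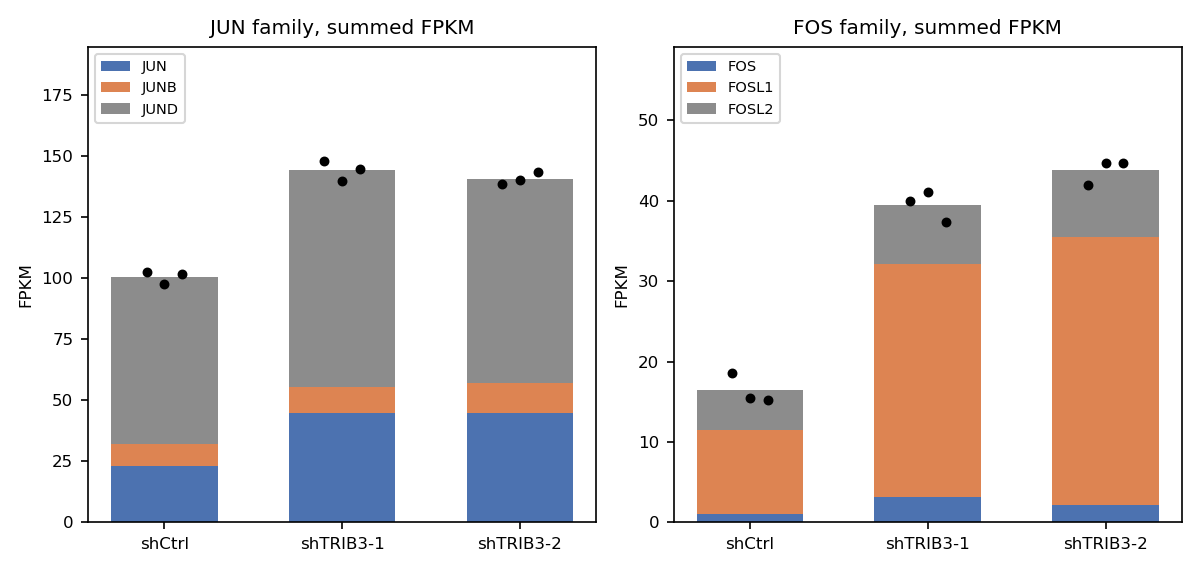
Summed FPKM of the JUN family (left) and the FOS family (right) in the 3 groups, with stacked bars for the group mean of each gene and points for the sum in each of 3 libraries per group. The JUN family sum is 100.5, 144 and 140.5 FPKM and the FOS family sum 16.5, 39.5 and 43.8, with FOSL1 the largest part of the latter in every group.

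EGR1, whose 2 CArG boxes are shown above, rose with both hairpins and more with the second. The gene spans 138465479 to 138469303 of chromosome 5 (plus strand). EGR1 read 2.29, 1.76 and 2.55 FPKM in shCtrl, 3.48, 3.01 and 3.25 in shTRIB3-1, and 4.94, 4.48 and 5.13 in shTRIB3-2, from 201 to 565 fragments per library. The 3 groups did not overlap. The log2 fold changes were 0.55 (SE 0.115, adjusted p = 8.87e-04) and 1.12 (SE 0.115, adjusted p = 2.19e-06), and the hairpins differed by 0.56 (adjusted p = 0.00185). Without shCtrl replicate 2, the lowest control library, the shTRIB3-2 value was 0.97 and fell short of the threshold of 1.

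MYC rose slightly with shTRIB3-1 and fell with shTRIB3-2. The gene spans 127735434 to 127742951 of chromosome 8 (plus strand), and 3.176% of its exon bases overlap CASC11 on the other strand. Its libraries read 26.1, 24.6 and 23.8 FPKM in shCtrl, 28.9, 27.5 and 26.98 in shTRIB3-1, and 17.5, 16.4 and 16.9 in shTRIB3-2. All shTRIB3-2 libraries were below every other library, whereas the lowest shTRIB3-1 library was only a little above the highest control library. On the log2 scale MYC rose by 0.16 under shTRIB3-1 (SE 0.0430, adjusted p = 0.00507), and shTRIB3-2 gave -0.55 (SE 0.0430, adjusted p = 1.70e-07). Rescaling each library to TPM gave 0.11 with shTRIB3-1 at an adjusted p of 0.0631. The direct difference between the hairpins was -0.71 (95% interval -0.80 to -0.62, adjusted p = 1.60e-07). MYC and DUSP6 were the genes among the 10 that passed the test in opposite directions with the hairpins, against 1.76% of tested genes.

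In the comparison of shTRIB3-2 with shTRIB3-1, FOSL2, JUNB, EGR1 and DUSP6 were higher and FOS and MYC lower, against 25.1% and 20.7% of tested genes in those directions and 45.8% in either. None of the 10 reached a log2 fold change of 1, which 2.08% of tested genes did in either direction. For FOSL1, JUN, JUND and DUSP1 the test was not passed, and the widest interval among these, that of FOSL1, ran from -0.03 to 0.44. The hairpin groups did not overlap for 7 of the 10 genes (all but JUN, JUND and DUSP1), as for 54.5% of tested genes.

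**Figure D4:**
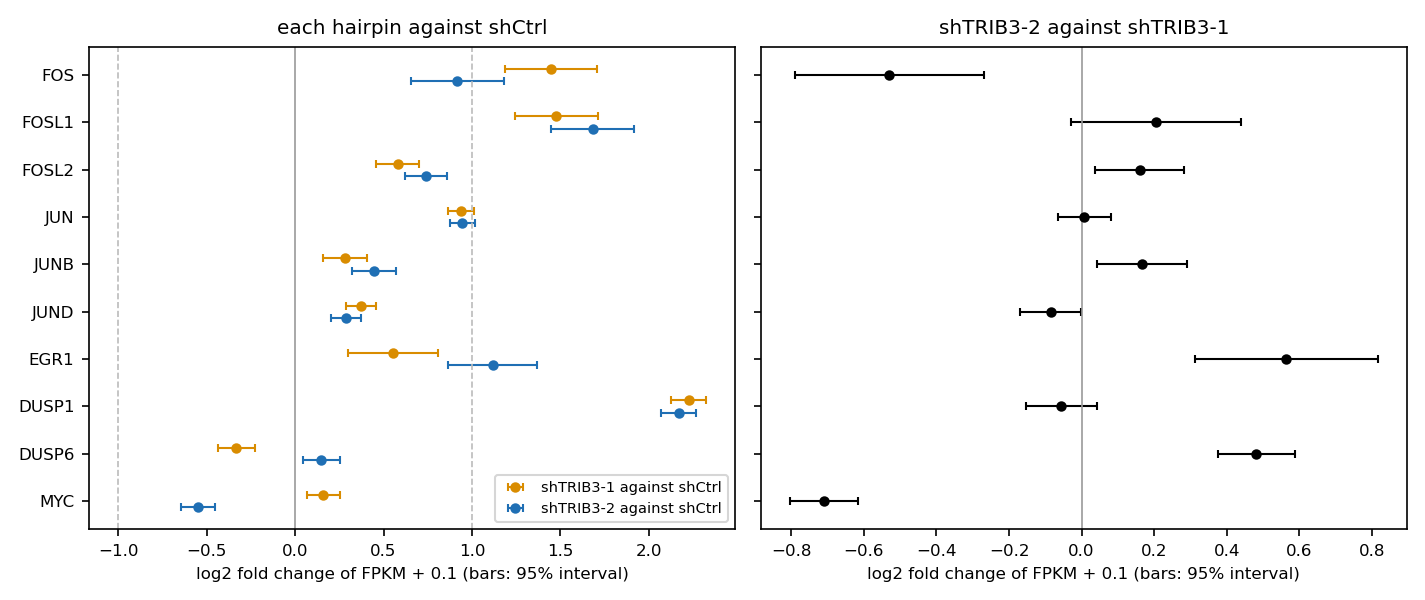
Log2 fold change of FPKM + 0.1 for the 10 genes, with each hairpin against shCtrl on the left and shTRIB3-2 against shTRIB3-1 on the right; bars are 95% intervals and dashed lines mark a log2 fold change of 1 in either direction. DUSP1 lies farthest to the right at 2.23 and 2.17, and MYC and DUSP6 are the genes whose hairpin values fall on opposite sides of 0.

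The order of the levels changed with knockdown. In shCtrl it ran from JUND, DUSP6, MYC, JUN and DUSP1 to FOSL1, JUNB, FOSL2, EGR1 and FOS, and of these neighbours only FOSL1 and JUNB overlapped. In shTRIB3-1 the order was JUND, DUSP1, JUN, FOSL1, MYC, DUSP6, JUNB, FOSL2, EGR1 and FOS, with overlap between FOSL1 and MYC and between EGR1 and FOS. In shTRIB3-2 it was the same for the first 4 genes, after which DUSP6, overlapping FOSL1, lay above MYC, and the last 4 genes kept their places without overlap. These orders depend on the gene length behind each FPKM. That length differed from the GENCODE v44 exon bases for MYC (4518 against 6109), FOS (2104 against 3186), FOSL2 (8787 against 7162) and JUN (3257 against 3624), among others. For JUNB, JUND, EGR1 and DUSP1 the lengths were equal. The order under other lengths was not tested.

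Genes with the most similar pattern over the 9 libraries were found by Pearson's r of log2 values, as a description in which all 9 points share the group structure. For JUN they were PALLD, an actin-associated protein (r = 0.99907), TRIB1, a TRIB3 relative (0.99878), and EHD4, an endocytic protein (0.99861). PALLD averaged 0.870 FPKM in shCtrl, under the filter level of 1 FPKM, and averaged above that level with each hairpin. TRIB1 stood at 17.2, 38.4 and 38.2 FPKM in the 3 groups. A set of 248 genes had an r above 0.99 with JUN. For FOSL1 they were CSRNP1 (r = 0.99857), TGFB1 (0.99643) and ANKRD1 (0.9952), and 41 genes were above 0.99. TGFB1, which encodes a secreted growth factor, stood at 13.4, 24.0 and 25.2 FPKM. For MYC they were ID2 (0.99227), the tyrosyl-tRNA synthetase gene YARS1 (0.98857) and the transketolase gene TKT (0.9884), and ID2 was the single gene above 0.99. YARS1 stood at 69.4, 75.2 and 49.9 FPKM.

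Other genes of these pathways were read from lists by role. Of 15 other AP-1 and related leucine zipper genes, 10 were tested; 6 rose and 3 fell with each hairpin, where 32.9% of all tested genes rose and 41.5% fell with shTRIB3-1, and 35.4% rose and 40.5% fell with shTRIB3-2. Their median log2 fold changes were 0.51 and 0.47, against -0.06 and -0.03 over all tested genes. BATF, an AP-1 partner of JUN proteins, rose from 6.01 ± 0.141 FPKM to 18.9 ± 1.39 and 16.1 ± 1.30 (SD, n = 3 each), which gave 1.63 (adjusted p = 4.13e-10) and 1.40 (adjusted p = 1.21e-09) on the log2 scale. MAFF, a small MAF protein, rose by 1.34 and 1.43, whereas ATF7 fell by 0.68 and 0.42 and CREB1, the cyclic AMP response factor, by 0.58 and 0.44 on the log2 scale. Of 6 genes for serum response factor and its partners, 5 were tested; 3 rose and 2 fell with shTRIB3-1, and 2 rose and 1 fell with shTRIB3-2, against the same shares of all tested genes (32.9% and 41.5%, 35.4% and 40.5%). With shTRIB3-1, 1 fell in place of 2 with centring or quantile normalization and without shCtrl replicate 2, shCtrl replicate 3 or shTRIB3-1 replicate 2. ELK3 rose by 1.16 and 0.86 and MRTFA by 0.69 and 0.37, and MRTFB fell by 0.97 and 0.58.

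Among 28 other immediate early genes, 21 were tested; 17 rose and 3 fell with shTRIB3-1, and 16 rose and 5 fell with shTRIB3-2, against 32.9% rising and 41.5% falling and 35.4% and 40.5% of all tested genes. Without KLF4, which passed the filter on low values only through the knockdown libraries, 16 of 20 rose and 3 fell, and 15 rose and 5 fell, with median log2 fold changes of 0.56 and 0.50. KLF6, a zinc finger factor, rose from 41.4 ± 1.93 FPKM to 139 ± 4.50 and 150.02 ± 2.98 (SD, n = 3 each), which gave 1.74 (adjusted p = 4.30e-12) and 1.86 (adjusted p = 1.44e-12) on the log2 scale. KLF4 rose by 2.78 and 1.88 from 0.504 FPKM in shCtrl. CCN2, which encodes a matricellular protein, fell by 0.80 and 0.88, and the mRNA decay factor gene ZFP36L2 fell by 0.67 and 1.14 on the log2 scale.

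The 19 other MAPK phosphatases and ERK feedback genes went both ways. Of 16 tested, 6 rose and 4 fell with shTRIB3-1, and 9 rose and 6 fell with shTRIB3-2. The shares of all tested genes were 32.9% and 41.5%, and 35.4% and 40.5%. With shTRIB3-1, centring and voom each gave 9 rising in place of 6. The 15 that did not pass the filter through the knockdown libraries alone held 5 rises and 4 falls, and 8 rises and 6 falls, with medians of 0.06 and 0.14. DUSP5, a nuclear phosphatase for ERK, rose from 5.64 ± 0.584 FPKM to 73.2 ± 3.72 and 59.9 ± 2.31 (SD, n = 3 each), which gave 3.68 (adjusted p = 8.34e-13) and 3.39 (adjusted p = 8.93e-13) on the log2 scale. DUSP9, a cytoplasmic ERK phosphatase, fell from 96.5 ± 3.12 FPKM to 47.8 ± 2.44 and 42.4 ± 1.48, which gave -1.01 (adjusted p = 7.03e-10) and -1.18 (adjusted p = 1.37e-10) on the log2 scale. DUSP7 fell by 0.95 and 1.13. SPRED3 rose by 3.08 and 3.41 from 0.116 FPKM in shCtrl, and it too passed the filter only through the knockdown libraries.

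Upstream, 28 of 29 genes of the MAPK cascade were tested; 8 rose and 10 fell with shTRIB3-1, and 11 rose and 11 fell with shTRIB3-2, where 32.9% and 41.5%, and 35.4% and 40.5%, of all tested genes did so. The medians were -0.08 and 0.03, both close to 0 and of either sign across alternatives. Without EGFR, which reached 1 FPKM in 0 shCtrl libraries, 7 of 27 rose and 10 fell with shTRIB3-1. With shTRIB3-2, 10 of these rose and 11 fell, and the medians were -0.08 and 0.02. NRAS rose by 0.52 and 0.58, and EGFR rose by 0.40 and 1.31 from 0.653 FPKM in shCtrl, having passed the filter only through the knockdown libraries. The smaller EGFR value missed the threshold with quantile normalization (0.14, adjusted p = 0.402), without shCtrl replicate 3 (adjusted p = 0.0527) and without shTRIB3-1 replicate 2 (adjusted p = 0.0662). MAP2K6, a p38 kinase kinase, fell by 1.87 and 1.79, and RPS6KA3, an ERK-activated kinase, by 1.00 and 0.75 on the log2 scale. Of 6 ligands of the EGF receptor, 3 were tested. Of these, 2 rose with shTRIB3-1 and 3 with shTRIB3-2, where 32.9% and 35.4% of all tested genes rose. Rescaled to TPM, 4 were tested, of which 3 rose and 1 fell with shTRIB3-1 and 4 rose with shTRIB3-2. TGFA, named after its values were seen, did not pass with shTRIB3-1 (-0.18, adjusted p = 0.0764), and its shTRIB3-2 value was 0.28 (adjusted p = 0.00922). HBEGF rose from 1.86 ± 0.0496 FPKM to 5.90 ± 0.114 and 7.54 ± 0.466 and AREG from 4.77 ± 0.437 to 17.2 ± 0.689 and 13.1 ± 0.885 (SD, n = 3 each), which gave 1.62 and 1.96 on the log2 scale for HBEGF and 1.83 and 1.44 for AREG.

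Downstream, 11 of 20 genes listed as AP-1 targets were tested. PLAUR and PLAU passed the filter with no shCtrl library at 1 FPKM, and of the 9 others 7 rose and 1 fell with shTRIB3-1, and 8 rose and 1 fell with shTRIB3-2, with medians of 0.84 and 0.85. Of all tested genes, 32.9% rose and 41.5% fell, and 35.4% rose and 40.5% fell. PLAUR, the urokinase receptor, rose by 2.60 and 1.85 from 0.660 FPKM in shCtrl. MMP3, a matrix metalloproteinase, rose by 1.68 and 0.92. The gene that fell was CCND1, encoding cyclin D1, at 75.1 ± 2.62 FPKM with the control hairpin and 37.8 ± 0.557 and 38.9 ± 1.63 after knockdown (SD, n = 3 each), which gave -0.99 (adjusted p = 3.14e-10) and -0.95 (adjusted p = 3.46e-10) on the log2 scale.

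Of 14 genes for partners and antagonists of MYC, 13 were tested; 3 rose and 5 fell with shTRIB3-1, and 4 rose and 4 fell with shTRIB3-2, against 32.9% rising and 41.5% falling and 35.4% and 40.5% of all tested genes. The balance with shTRIB3-1 turned with the scaling, to 6 rising and 3 falling with centring and with voom and 6 rising and 4 falling with quantile normalization. MYCN, the MYC paralogue, fell from 5.27 ± 0.105 FPKM to 2.49 ± 0.576 and 1.48 ± 0.0984 (SD, n = 3 each), which gave -1.07 (adjusted p = 9.05e-06) and -1.77 (adjusted p = 8.37e-08) on the log2 scale. MXD3 fell by 1.30 and 1.37, whereas MXD1, which competes with MYC for MAX, rose by 0.63 and 0.56 and FBXW7, part of the ligase that degrades MYC, by 0.41 and 0.57 on the log2 scale.

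Of 30 genes listed as MYC targets, 29 were tested; 4 rose and 20 fell with shTRIB3-1, and 0 rose and 25 fell with shTRIB3-2, by limma. Their median log2 fold changes were -0.24 and -0.32, against -0.06 and -0.03 over all tested genes. Of all tested genes, 32.9% rose and 41.5% fell with shTRIB3-1, and 35.4% rose and 40.5% fell with shTRIB3-2. For shTRIB3-2 the count of 0 rising was also 0 at an unadjusted p under 0.05 and 0 with voom, and quantile normalization gave 1. With shTRIB3-1, centring and voom each gave 7 rising in place of 4, and across alternatives 16 to 21 fell with shTRIB3-1 and 23 to 26 with shTRIB3-2. CAD, the enzyme of the first steps of pyrimidine synthesis, fell from 11.6 ± 0.552 FPKM to 4.58 ± 0.217 and 4.58 ± 0.262 (SD, n = 3 each), a log2 fold change of -1.32 with each hairpin (adjusted p = 1.51e-09 and 1.23e-09). CDC25A, a phosphatase that activates cyclin-dependent kinases, fell by 1.03 and 1.55. The 4 genes that rose with shTRIB3-1 were BOP1, CCND2, HSPD1 and HSPE1, named after their values were seen. Directly between the hairpins, 2 of the 29 were higher and 16 lower with shTRIB3-2, against 25.1% and 20.7% of all tested genes. Their median was -0.12, against 0.025 over all tested genes, and MYC itself was at -0.71. A link between the level of MYC and these counts was not tested.

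**Figure D5:**
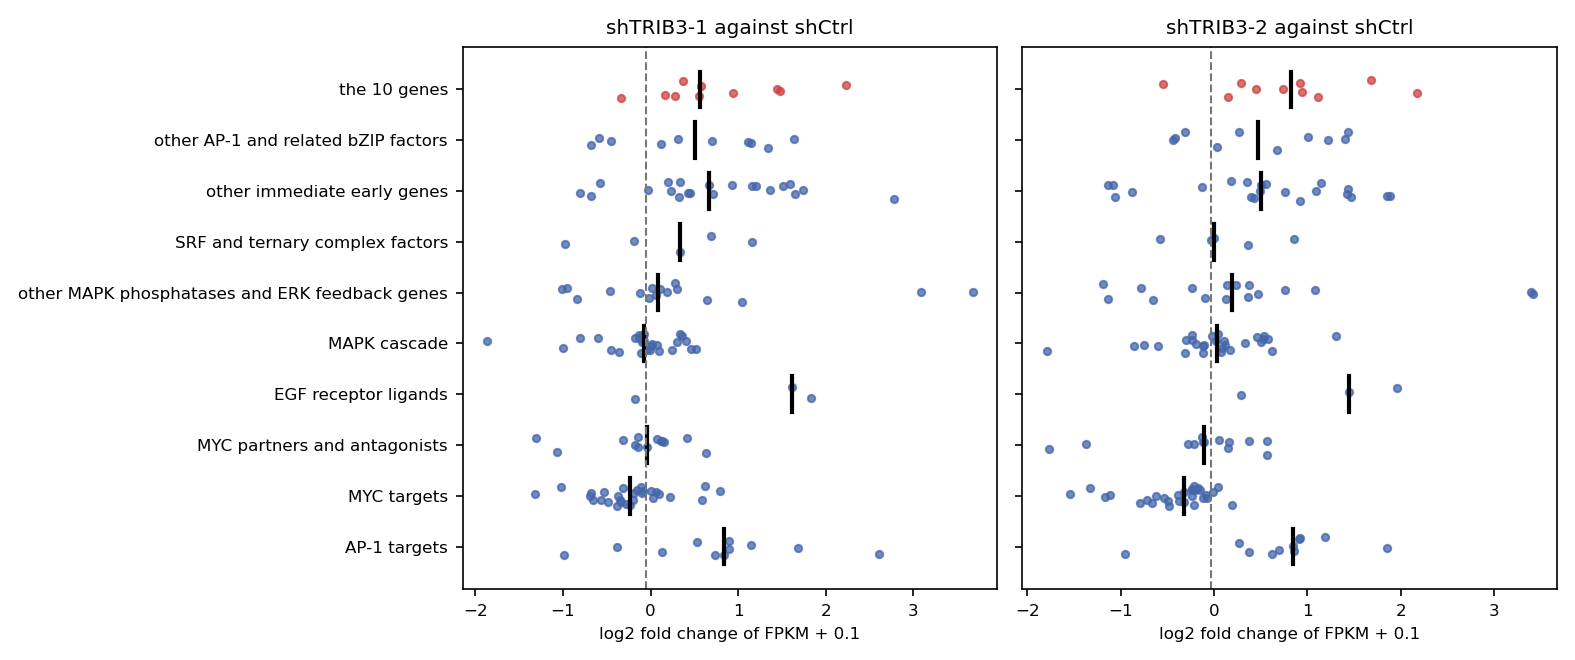
Log2 fold change of FPKM + 0.1 of every tested gene in the 10 genes and 9 other lists, with shTRIB3-1 against shCtrl on the left and shTRIB3-2 against shCtrl on the right. Points are genes, vertical bars are list medians and the dashed line is the median of all tested genes; the 10 genes have medians of 0.57 and 0.83 and the MYC targets of -0.24 and -0.32.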

How the data were processed

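RNA-seq was measured in 9 libraries, and each was assigned to its group by its label. The values are FPKM per gene symbol and library, computed and deposited by the authors. Per the study's methods, paired reads were aligned to GRCh38 with STAR; the submitters' processing notes name HTSeq and R 3.2.0, and the annotation release and the strand setting of counting are not given in the sources used here. FPKM is scaled by 1 factor per library and leaves changes in library composition uncorrected. The methods describe a strand-specific kit, and the labels name a different kit without stating its strandedness.

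Whole fragments and library totals were worked back from the FPKM values, with gene lengths chosen so that the fragments came out whole. Of 172769 values above 0, 100% came within 0.02 of a whole number. Because the lengths were chosen that way, this is not an independent check of the recovery. Molecular identifiers were not used, so the true error of 1 library exceeds its counting error. Every pair of replicates differed by more than sampling noise (chi-square per degree of freedom 3.13 to 7.54). There were 0 value columns left unused.

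Genes with FPKM of at least 1 in at least 3 of 9 libraries were tested (11265 of 24204). A model of 3 group means was fitted to log2(FPKM + 0.1) of all 9 libraries with limma 3.58.1 (R 4.3.3; empirical Bayes with trend), two-sided, with Benjamini-Hochberg adjustment over all tested genes. "Rose" and "fell" mean an adjusted p under 0.05, and the threshold of 1 is an absolute log2 fold change on this scale, which understates changes of low genes. The scripts were tested on simulated data. Alternatives were other pseudocounts, filters and scalings, voom on the fragments, the replicate number as a block, and leaving out each library.

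All 10 genes are named. From each other list, up to 2 genes per direction are named, those with the largest mean absolute log2 fold change among genes that passed with both hairpins in 1 direction; for JUN, FOSL1 and MYC, the 3 genes of highest r. The 10 genes and the lists were chosen with earlier results of these data known, so they are descriptions and not independent evidence. Coordinates are from GENCODE v44 (GRCh38) and promoter windows from RefSeq (GRCh38.p14). Figures were drawn with matplotlib 3.10.9.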

Additional observations from a re-analysis of the deposited data

Results flagged for a closer look

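Of the 10 genes, 6 differed between the hairpins by limma's direct test of shTRIB3-2 against shTRIB3-1 (n = 3 libraries each, adjusted over all tested genes). On the log2 scale the difference was -0.71 for MYC (adjusted p = 1.60e-07) and -0.53 for FOS (adjusted p = 0.00339), both lower with shTRIB3-2. EGR1 was higher with shTRIB3-2 by 0.56 (adjusted p = 0.00185) and DUSP6 by 0.48 (adjusted p = 9.42e-06). FOSL2 was higher by 0.16 (adjusted p = 0.0342) and JUNB by 0.17 (adjusted p = 0.0321), and both of these missed the threshold under several alternatives. Such differences were frequent, with 45.8% of tested genes passing this test. TRIB3 itself was lower with shTRIB3-2, and a difference in its depletion cannot be told apart from other differences between the hairpin sequences.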

How the results depend on the processing

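Each comparison of the 10 genes was refitted under 18 alternatives, or 17 for FOS and EGR1, which were not tested when the filter was raised to FPKM of at least 5. Of the gene values under an alternative, 510 kept their direction and side of the threshold, 15 no longer passed it, 5 newly passed it and 4 changed sign. The 4 were all the difference of JUN between the hairpins, which is close to 0: -0.021 when libraries were centred on their median, -0.0126 with voom, -0.0126 without shTRIB3-1 replicate 3 and -0.0164 without shTRIB3-2 replicate 3, in a range of -0.0164 to 0.0221 over the libraries left out. Of the 15, 13 were the differences of FOSL2 (5) and JUNB (8) between the hairpins. The others were MYC with shTRIB3-1 rescaled to TPM (0.11, adjusted p = 0.0631) and DUSP6 with shTRIB3-2 without shCtrl replicate 1 (0.13, adjusted p = 0.0511); the cause was not tested. The 5 that newly passed were FOSL1 and JUND between the hairpins.

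With 1 library left out, the number of the 10 genes past a log2 fold change of 1 was 3 with shTRIB3-1 and 2 to 4 with shTRIB3-2, the 2 without shCtrl replicate 2 (EGR1 at 0.97) and the 4 without shCtrl replicate 3 (FOS at 1.01). A pseudocount of 1 gave 2 with each hairpin (FOS at 0.98 with shTRIB3-1, EGR1 at 0.88 with shTRIB3-2). Centring gave 4 with shTRIB3-1 (JUN at 1.02). Across alternatives the median of all tested genes with shTRIB3-1 lay between -0.113 (TPM) and 0.024 (centring).

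No strong pairing by replicate number was visible, since deviations of same-numbered libraries correlated at -0.0742 to 0.0933. Such values cannot settle whether same-numbered libraries shared a culture or batch. With the replicate block, 3 of the 10 genes were past a log2 fold change of 1 with each hairpin and 0 between hairpins, 10, 10 and 6 passed the adjusted p, and no call changed. Depth limits FOS most, at 73 to 241 fragments per library.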
